A study of Sus scrofa with 16 samples.

Results

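The 10 genes described here carry the calcium cycle and the electrical excitation of striated muscle: RYR1, RYR2, ATP2A1, ATP2A2, PLN, CASQ1, CASQ2, CACNA1S, CACNA1C and SCN4A. They were chosen by name from 19560 protein-coding genes (PCGs), and every consensus ATAC-seq peak that overlapped a promoter of a member, or its gene body with 5 kb on either side, was taken from all 8 deposited peak lists. This locus rule gave 722 of the 798988 peaks, which merged into 305 of 288665 distinct accessible chromatin regions. As a promoter counted the 2.2 kb before and the 500 bp after a transcription start site (TSS) in the RefSeq annotation of the pig assembly Sscrofa11.1. ATAC-seq marks DNA that a transposase can reach, and a consensus peak is a stretch called in both replicates of a group. The samples were 16 bulk libraries of female crossbred domestic pigs, 2 replicates in each of 8 groups. Heart, skeletal muscle, kidney, liver, lung and spleen came from newborns, labelled day 0, and liver was also sampled from 28-day sucklings and 180-day adults. No genetic change or treatment is given for any group. The study describes the animals of a stage as full sisters of a Berkshire and Tibetan cross, so replicates within a group are closely related, says that all newborn tissues came from the same 2 pigs, and names the longissimus dorsi of the back as the muscle.

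Each list pools the 2 replicates of a group and gives no read counts, so a number of peaks has no replicate error, and the lists do not give the depth behind it. The strength of a peak is its −log10 p, given for each replicate, and an exact permutation test of 2 replicates against 2 cannot go below p = 0.333. No test was made, and all comparisons are descriptions of these lists. Since −log10 p grows with depth, strength was compared between lists only as the percentile of a peak among the peaks of its own list, for the smaller replicate value unless a replicate is named. The lists held from 57126 peaks in skeletal muscle to 141689 in suckling liver, with 72920 in heart, so locus counts are also given per 100000 peaks of a list. All 5 heart markers found in the annotation had a promoter peak in the heart list, 0 in muscle and at most 2 in any other list. All 6 skeletal muscle markers had a promoter peak in muscle, but such peaks were also listed for 2 of them in heart (ACTA1 and CKM), 4 in kidney, 4 in newborn liver and 3 in lung. Kidney had a promoter peak at 4 of 5 kidney markers, with UMOD at 0, and newborn liver at 5 of 6 liver markers, with ALB at 0. Lung and spleen each had 6 of 6 of their own. Smooth muscle markers had promoter peaks at 5 or 6 of 6 genes in every list, with 25 locus peaks in heart, 21 in muscle and 35 in kidney. The part of smooth muscle cells in the values below was not tested. In bulk tissue, fewer cells of a type and less open chromatin per cell cannot be told apart.

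In striated muscle an action potential opens voltage-gated channels in the surface membrane, calcium leaves the sarcoplasmic reticulum through ryanodine receptors, the myofilaments contract, and a calcium pump refills the store, where calsequestrin buffers the calcium. Skeletal muscle and heart use different genes for most of these steps. In skeletal muscle the sodium channel SCN4A carries the action potential, CACNA1S senses the voltage and is coupled mechanically to RYR1, and ATP2A1 (SERCA1) pumps calcium back in fast fibres. In heart, calcium entry through CACNA1C triggers RYR2, and ATP2A2 (SERCA2) refills the store under the brake of phospholamban (PLN). CASQ1 is the calsequestrin of fast skeletal fibres, and CASQ2 is that of heart and is also made in slow and developing skeletal muscle. ATP2A2 has a form used by most cells, and CACNA1C is used by smooth muscle and neurons too. The heart-type members are therefore ATP2A2, RYR2, CASQ2, CACNA1C and PLN, and the skeletal-type members are ATP2A1, RYR1, CASQ1, CACNA1S and SCN4A.

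The 5 sequences of 300 bases printed here come from peaks described below, and each lies outside every annotated exon. They are printed on the strand of the gene, and capitals mark matches, on either strand, to the E-box CAGCTG bound by MYOD, the GATA motif AGATAA, the TEAD motif GGAATG, the NKX2 motif CACTTNA, the MEF2 motif (CTA, any 4 bases, TAG) and the CArG box of SRF (CC, 6 A or T bases, GG). A match is a description of the letters, not evidence that a factor binds. A further window, at the centre of the strongest ATP2A1 peak in muscle, held 0 matches and is not printed. The first is the centre of the strongest RYR1 peak in muscle, chr6:47340832-47341131 on the plus strand, and it holds 2 E-boxes.
RYR1 intron, open in muscle only: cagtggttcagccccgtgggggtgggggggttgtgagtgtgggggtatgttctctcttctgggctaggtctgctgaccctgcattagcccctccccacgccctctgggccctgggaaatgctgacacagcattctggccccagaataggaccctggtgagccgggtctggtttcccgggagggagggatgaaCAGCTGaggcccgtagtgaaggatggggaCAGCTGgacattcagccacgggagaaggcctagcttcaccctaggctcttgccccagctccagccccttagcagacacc
The strongest CASQ2 peak in muscle, open in no newborn list but muscle and heart, lies at chr4:104933377-104933676 on the plus strand and holds 1 MEF2, 1 NKX2 and 2 adjoining TEAD matches.
CASQ2 intron, open in heart and muscle: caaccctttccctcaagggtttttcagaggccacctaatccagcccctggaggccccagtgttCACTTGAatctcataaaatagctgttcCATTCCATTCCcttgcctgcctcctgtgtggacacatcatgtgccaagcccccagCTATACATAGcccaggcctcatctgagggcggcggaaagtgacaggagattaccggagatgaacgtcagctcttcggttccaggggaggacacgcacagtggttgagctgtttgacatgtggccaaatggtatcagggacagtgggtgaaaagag
The strongest PLN peak of both heart and muscle lies at chr1:43452242-43452541 on the minus strand and holds 3 TEAD matches and 1 GATA match. Kidney and adult liver also had a peak in this region.
PLN intron, open in heart and muscle: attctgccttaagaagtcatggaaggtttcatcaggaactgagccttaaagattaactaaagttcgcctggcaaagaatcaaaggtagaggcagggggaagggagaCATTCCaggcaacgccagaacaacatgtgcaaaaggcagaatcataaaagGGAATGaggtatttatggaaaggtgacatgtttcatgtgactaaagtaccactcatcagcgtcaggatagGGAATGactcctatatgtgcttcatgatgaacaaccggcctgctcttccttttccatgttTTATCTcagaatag
The 300 bases before the PLN start, chr1:43458926-43459225 on the minus strand, lie under a peak of heart that muscle lacked. Spleen and adult liver had peaks of lower percentile in this region. The 300 bases hold no CpG, 32.7% G or C, and 1 GATA match.
PLN upstream, open in heart: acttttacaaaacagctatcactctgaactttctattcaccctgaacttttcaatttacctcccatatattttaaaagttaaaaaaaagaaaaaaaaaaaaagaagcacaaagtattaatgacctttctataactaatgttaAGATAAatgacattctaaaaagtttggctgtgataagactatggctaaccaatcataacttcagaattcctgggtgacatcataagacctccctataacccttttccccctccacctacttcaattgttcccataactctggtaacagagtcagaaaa
The strongest CACNA1S peak in muscle, chr10:23559324-23559623 on the minus strand, was not called in any other list and holds 2 TEAD matches.
CACNA1S intron, open in muscle only: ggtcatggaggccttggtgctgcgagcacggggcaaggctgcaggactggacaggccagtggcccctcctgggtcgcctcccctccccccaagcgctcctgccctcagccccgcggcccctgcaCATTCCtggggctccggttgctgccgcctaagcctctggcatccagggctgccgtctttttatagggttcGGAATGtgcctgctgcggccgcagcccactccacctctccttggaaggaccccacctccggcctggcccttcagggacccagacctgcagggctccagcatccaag

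In the full lists, the number of peaks at a locus followed the type of the gene at RYR1, RYR2, ATP2A1 and CACNA1S. At the other 6 genes it did so less or not at all. Type is only a label here, since a heart-type gene such as CASQ2 is also used in skeletal muscle. The 5 heart-type loci together held 120 peaks in the heart list and 50 in the muscle list. After division by the size of each list, heart accounted for 65.3% of the summed rates, where equal rates would give 50%. The 5 skeletal-type loci together held 16 peaks in heart and 46 in muscle, a heart share of 21.4%. RYR2 alone gave 61 of the 120 heart peaks and CACNA1C another 37. Without RYR2 the heart-type loci held 59 and 48 peaks and the heart share was 49.1%, so in the full lists the excess over 50% rests on RYR2. Limited to peaks with an irreproducible discovery rate of 0.05 or lower, the share without RYR2 was 54.1%, from 11 peaks in each list. Any equal counts give that value, because the limited lists held 14523 peaks in heart and 17108 in muscle. Per member, the heart share ran from 5.68% at RYR1 to 96.0% at RYR2. Among the 16336 PCGs with a locus peak in either list, the median share was 43.9% because a gene with equal raw counts sits there, 41.6% of genes had more peaks per 100000 in heart and 58.4% had more in muscle. RYR1, ATP2A1 and CACNA1S lay at the 1.96, 1.97 and 2.02 percentiles of this distribution, and RYR2 at the 91.0 percentile. Among heart-type members, CACNA1C (55.8%, percentile 68.0) was also above the median, ATP2A2 (47.2%) and PLN (43.9%) were close to it, and CASQ2 (34.3%, percentile 14.5) lay on the muscle side. CASQ1 (40.2%) and SCN4A (35.4%) leaned to muscle by less than the other skeletal-type members did.

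**Figure D1:**
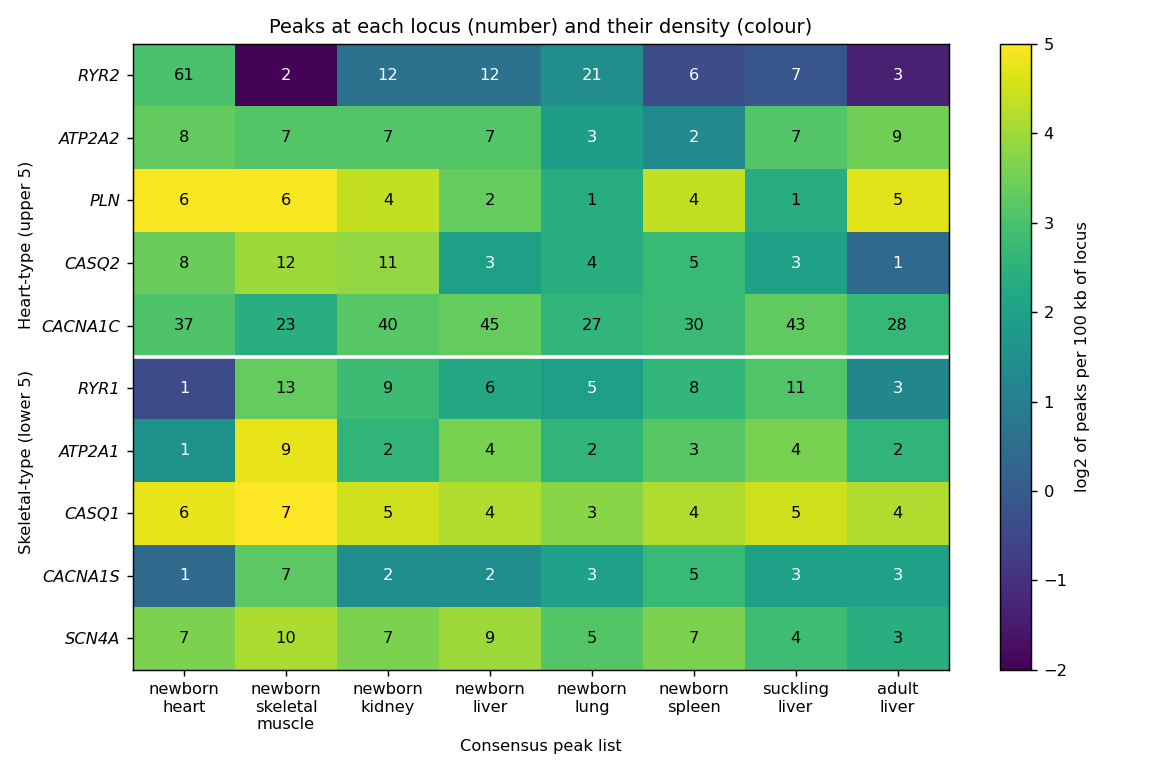
Each row is a member and each column a consensus peak list. The number is the count of peaks at the locus, and the colour is the log2 of peaks per 100 kb of locus. RYR2 has 61 peaks in heart and 2 in muscle, and RYR1 has 1 in heart and 13 in muscle.

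**Figure D2:**
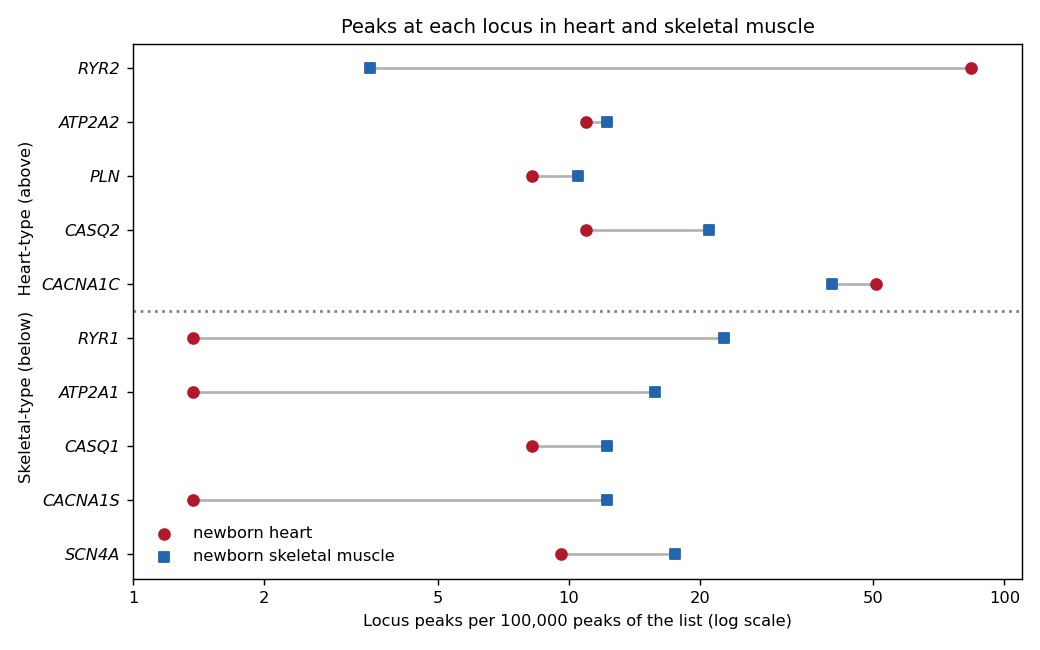
Locus peaks per 100000 peaks of the list, on a log axis, for newborn heart (circles) and newborn skeletal muscle (squares), with heart-type members above the dotted line and skeletal-type members below. At RYR1, ATP2A1 and CACNA1S the heart value is 1.37 and the muscle value is between 12.2 and 22.8.

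Relative to list size, muscle was the highest of the 8 lists at 8 of the 10 loci, including the heart-type loci ATP2A2 (12.2 peaks per 100000), PLN (10.5) and CASQ2 (21.0). Muscle was the highest list for 23.7% of the 18263 PCGs with any locus peak, and heart for 11.7%. Heart was highest at the other 2 members, RYR2 (83.7 per 100000) and CACNA1C (50.7), and second at 5 of the loci led by muscle: ATP2A2, PLN, CASQ1, CASQ2 and SCN4A. At the remaining 3, RYR1, ATP2A1 and CACNA1S, heart was the lowest of all 8 lists, below liver, kidney, lung and spleen.

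The number of members with a promoter peak was close in heart and muscle, but the members differed. A promoter peak was listed in heart for 7 of the 10 members, beside 67.9% of all PCGs, and in muscle for 8 members, beside 61.4%. The numbers were 8 in kidney (75.1% of PCGs), 5 in newborn liver (73.5%), 7 in lung (70.4%), 8 in spleen (68.8%), 7 in suckling liver (74.8%) and 3 in adult liver (69.7%). With the same number of top peaks in every list, muscle kept 8 and heart 6, whereas kidney, lung, spleen and suckling liver had 4 each, newborn liver 3 and adult liver 2. Adult and newborn liver were furthest under the share of all genes, and with 10 genes a single gene moves the share by 10 percentage points. The members without a promoter peak in heart were RYR1, ATP2A1 and CACNA1S, which made 3 genes with one in muscle and not in heart, against 1.54% of PCGs. PLN and RYR2 had one in heart and not in muscle, against 8.0% of PCGs. Each of RYR1, ATP2A1, CACNA1S, PLN and RYR2 thus had its promoter peak on the side of its type. A promoter peak without a counterpart in the other 5 newborn lists was found in muscle for ATP2A1, SCN4A and CACNA1S (2.08% of PCGs), in lung for CACNA1S at another position, and for 0 members in heart (1.72% of PCGs), a number that became 1 with an IDR limit or with lists of equal length. ATP2A2, CACNA1C and SCN4A had a promoter peak in all 6 newborn lists, as 57.6% of PCGs did. All 10 members had one in at least 3 lists, and the share of PCGs with that many was not counted. Members without one in any list were 0, beside 17.0% of PCGs, a difference of little weight with 10 genes.

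The ryanodine receptors gave the widest contrast. RYR1 (chr6:47339759-47458457, plus strand), the release channel of skeletal muscle, held 1 peak in heart and 13 in muscle, with 9 in kidney, 6 in newborn liver, 5 in lung, 8 in spleen, 11 in suckling liver and 3 in adult liver. The muscle signal was concentrated at the 5′ end. The promoter peak at chr6:47339406-47339788 had −log10 p of 37.7 and 31.7 in the 2 muscle replicates and was at percentile 84.8. It overlapped peaks of kidney (percentile 86.7), newborn liver (48.4) and suckling liver (70.6), so an open RYR1 promoter was not restricted to muscle. The intronic peak that follows, chr6:47340550-47341464 with its summit 1223 bases into the gene, reached 78.0 and 69.7 and percentile 95.7, and no other list had a peak there. The other 11 muscle peaks of RYR1 lay between percentiles 8.29 and 47.0. The single heart peak, 85.2 kb into the gene, had −log10 p of 4.59 and 6.68 and was at percentile 17.1.

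RYR2 (chr14:53652140-54406691, minus strand), the release channel of heart and at 755 kb the longest member, held 61 heart peaks. The muscle list had 2, lung 21, kidney 12, newborn liver 12, suckling liver 7, spleen 6 and adult liver 3. Of the 61, 47 overlapped no other newborn list and 57 lay in introns. They were spread along the gene, with 1 at the promoter, 15, 24, 15 and 5 in 4 equal stretches from the 5′ end, and 1 beyond the 3′ end, at a median spacing of 6.81 kb. Most were weak: the median percentile was 35.1, 15 of 61 were above the middle of the heart list, and 4 had an irreproducible discovery rate (IDR) of 0.05 or lower, where 19.9% of all heart peaks did. Close to the start, chr14:54404162-54404626 had 24.6 and 38.4 (percentile 87.9) and was in no other list. The promoter peak itself, chr14:54406511-54407053, had 15.0 and 14.2 in heart and was shared with kidney, newborn and suckling liver, lung and spleen. In kidney it was at percentile 87.5, above its 77.6 in heart. Muscle had no RYR2 promoter peak, and 1 of its 2 peaks, chr14:53839082-53839461, lay 567 kb into the gene at percentile 69.8 and coincided with a heart peak at percentile 66.8. The other, chr14:54405497-54405706, lay 1102 bases into the gene at percentile 6.05, in a region where heart also had a peak and where the promoter peaks of kidney, newborn liver, lung and spleen reached. In density, RYR2 had 7.98 peaks per 100 kb in heart and 0.262 in muscle, where the medians of all PCGs were 5.02 and 3.80.

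**Figure D3:**
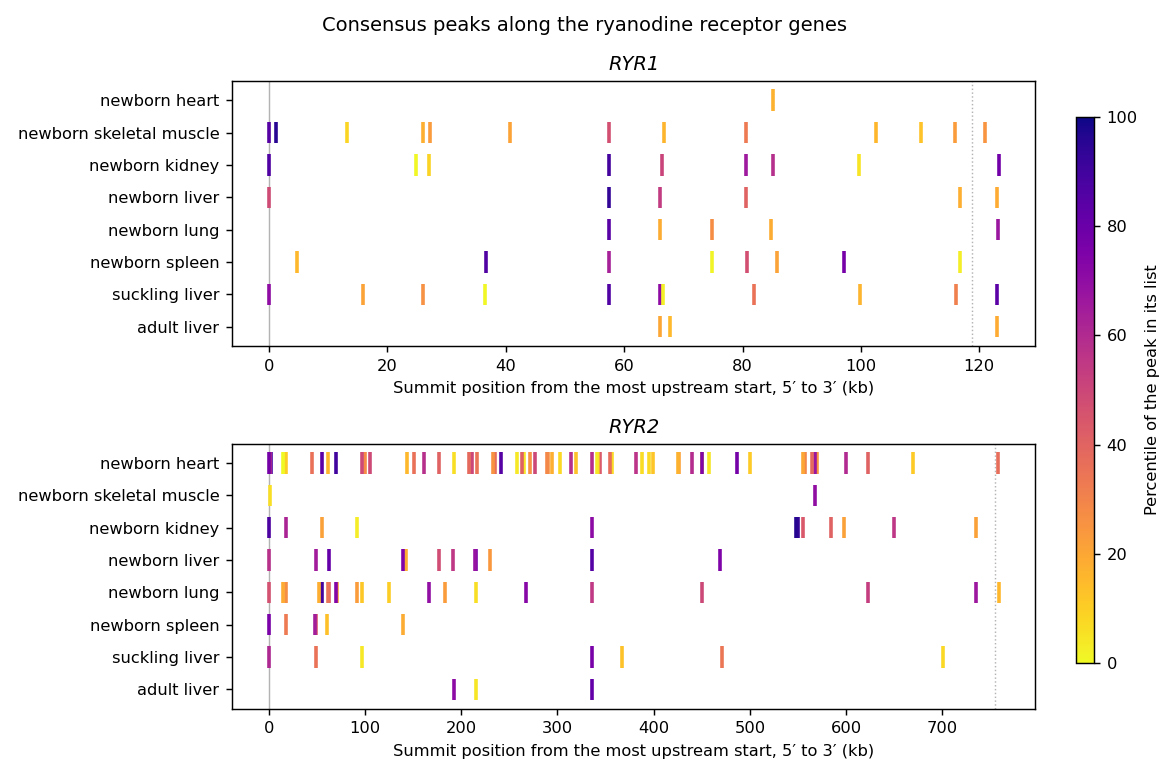
Summits of consensus peaks along RYR1 and RYR2 in the 8 lists, by distance in kb from the start in the direction of transcription, with darker colours for a higher percentile of the peak in its list. The solid line is the start and the dotted line the 3′ end. RYR2 has 61 marks in heart along the whole gene and 2 in muscle, and the strongest RYR1 mark in muscle, at percentile 95.7, lies next to the start.

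The pumps differed in another way: ATP2A1 was open at its promoter in muscle, and ATP2A2 was open at its promoter everywhere. ATP2A1 (chr3:18545064-18568312, plus strand) has 2 annotated starts and held 9 muscle peaks. Of these, 6 were promoter peaks, between chr3:18544951 and chr3:18547979, and none of the 6 overlapped a peak of another list. Their −log10 p ran from 5.03 to 18.8 in replicate 1 and from 5.98 to 12.6 in replicate 2, their percentiles from 20.6 to 65.1, and none reached an IDR of 0.05. The strongest muscle peak was intronic, chr3:18551528-18552164, with 22.8 and 18.6 (percentile 74.8), and it too was in no other list. Heart had 1 peak, chr3:18549008-18549854, with 23.3 and 37.1 (percentile 87.2). That region, 1442 bases past the second start, was called in all 8 lists, with the highest percentile in suckling liver (95.0) and the lowest in muscle (50.5). Spleen and suckling liver also counted as having an ATP2A1 promoter peak, but these lay at the outer edge of the promoter window, with summits at −2482 and −2355 bases. The locus overlaps SH2B1 and RABEP2.

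ATP2A2 (chr14:31674659-31744981, plus strand) held 8 peaks in heart, 7 in muscle, kidney, newborn and suckling liver, 9 in adult liver, 3 in lung and 2 in spleen. Its promoter peak was in every list and was among the strongest of its list outside muscle and heart, at percentiles 92.3 in kidney, 94.4 in newborn liver, 96.4 in lung, 96.8 in spleen, 93.7 in suckling liver and 93.4 in adult liver. In heart the replicates differed, with 28.4 and 4.33 (replicate percentiles 85.3 and 4.95), and in muscle they gave 35.3 and 10.5 (83.0 and 37.9). The low values of the combined percentile, 12.4 in heart and 59.3 in muscle, therefore rest on replicate 2 in each tissue. The strongest heart peak of ATP2A2, chr14:31739721-31740527, overlapped an exon 64.8 kb from the start, near the 3′ end of the gene. It had 29.4 and 42.8 in the heart replicates (percentile 90.4) and no counterpart in any other list.

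PLN (chr1:43449354-43458925, minus strand), the inhibitor of the pump, lies within CEP85L and had a promoter peak in heart that muscle lacked. This peak, chr1:43458769-43459242, had 19.6 and 37.0 in the 2 heart replicates and was at percentile 84.4. Muscle, kidney, newborn and suckling liver and lung had no PLN promoter peak, spleen had a weak one (percentile 4.0), and adult liver had 2, at percentiles 43.7 and 28.3. The intronic region 6.5 kb downstream was open in both striated muscles and ranked somewhat higher in the muscle list. Heart gave 22.7 and 21.9 (replicate percentiles 80.6 and 78.2) and muscle 51.5 and 41.9 (89.7 and 83.0), so the replicate percentiles did not overlap. Kidney and adult liver were the other lists with a peak there. Heart and muscle each held 6 peaks at the locus, an equal 30.7 per 100 kb, which was percentile 99.5 of all PCGs in each list. Their strengths were not equal: the median percentile was 65.0 in heart, with 5 peaks above 50, and 34.9 in muscle, with 1 above 50. With narrower windows and no flank, 3 heart and 4 muscle peaks remained. A further intronic region, 3.18 kb into the gene, was called in the 6 lists other than heart and muscle and was strongest in kidney, at percentile 85.2.

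By locus counts the calsequestrins did not divide between heart and muscle, although the CASQ1 promoter ranked higher in both muscle replicates. CASQ2 (chr4:104918204-104984019, plus strand), the calsequestrin of heart, held 12 peaks in muscle, 8 in heart and 11 in kidney, and from 1 in adult liver to 5 in spleen elsewhere. Every heart peak of CASQ2 overlapped a muscle peak. The strongest muscle peak, chr4:104933276-104933779, 15.3 kb into the gene, had 79.8 and 65.1 in muscle (percentile 94.9) and 28.2 and 44.8 in heart (percentile 89.8), and no other list had it. The strongest heart peak, chr4:104926528-104927125, had 33.9 and 40.6 in heart (92.1) and 37.2 and 39.7 in muscle (87.4), and was again in heart and muscle only. Another strong muscle peak at chr4:104929346-104929735, with 39.6 and 40.8 (percentile 88.3), was in no other list. The CASQ2 promoter was open in both, with 48.4 and 43.5 in muscle (percentile 89.8) and 9.85 and 43.2 in heart (66.3), and in kidney (46.2), spleen (11.7) and lung (6.24). None of the 3 liver lists had a CASQ2 promoter peak. A region about 4.4 kb upstream of the start was called in all 8 lists. Of the 12 muscle peaks 7 had an IDR of 0.05 or lower, and of the 8 heart peaks 3 did.

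CASQ1 (chr4:90276752-90288990, minus strand), the calsequestrin of fast skeletal fibres, held from 3 to 7 peaks in every list, with 7 in muscle and 6 in heart. The 22-kb locus also contains PEA15 and an unnamed gene, and its peaks merged into 5 regions. The promoter was open in 6 lists. In muscle the peak at chr4:90287245-90287769 had 33.4 and 34.4 (percentile 85.6) and a second at chr4:90288565-90289685, over the upstream start, had 25.0 and 32.1 (80.6). In heart a wider peak, chr4:90287360-90288914, had 6.89 and 15.4 (48.7). The replicate percentiles there were 35.2 and 68.0 in heart and 81.8 and 78.6 in muscle. An intronic region 3.0 kb into the gene was the strongest CASQ1 peak in newborn and suckling liver, lung and spleen, up to percentile 97.0 in newborn liver.

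**Figure D4:**
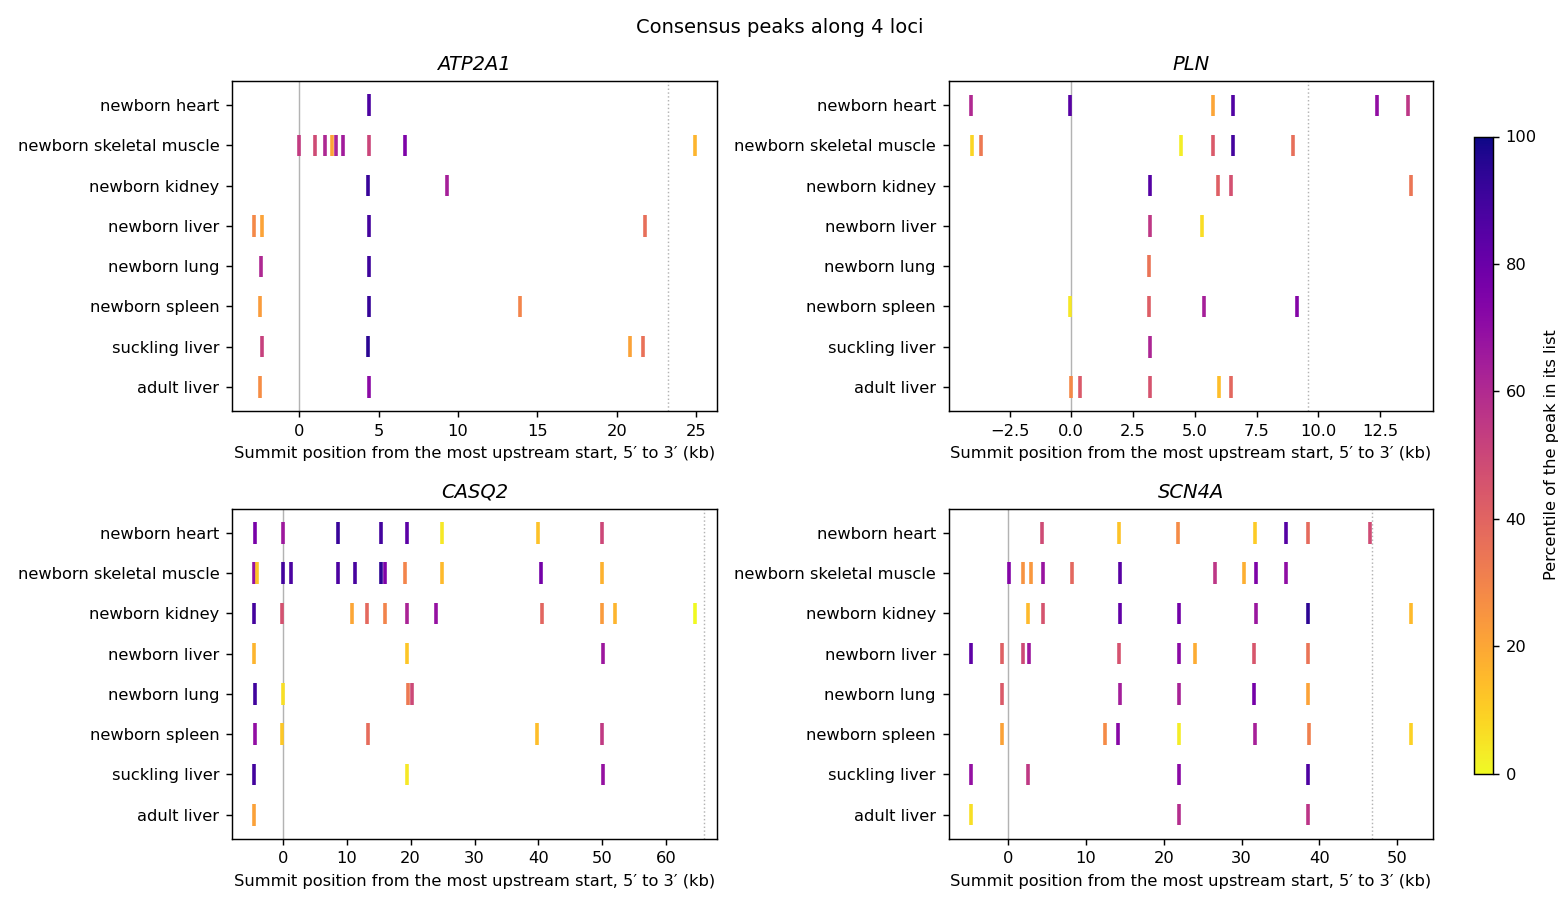
Summits of consensus peaks along ATP2A1, PLN, CASQ2 and SCN4A in the 8 lists, by distance in kb from the most upstream start (solid line) in the direction of transcription, with the 3′ end as a dotted line and darker colours for a higher percentile in the list. The 6 promoter peaks of ATP2A1 appear in the muscle row alone, and the PLN promoter peak is dark in heart (percentile 84.4) and absent from muscle.

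Of the calcium channels that sense voltage, CACNA1S had the most peaks in muscle and CACNA1C had many in every list. CACNA1S (chr10:23503701-23567797, minus strand) held 7 muscle peaks and 1 heart peak, with 5 in spleen, 3 in lung, suckling and adult liver, and 2 in kidney and newborn liver. The muscle promoter peak chr10:23567408-23568309 had no counterpart in another newborn list, but its replicates differed, with 53.5 and 4.97 (replicate percentiles 90.4 and 7.14), and suckling liver had a peak there at percentile 14.3. A second muscle promoter peak, chr10:23568854-23569336, was at percentile 47.9 and was shared with weaker peaks of kidney and lung. The strongest muscle peak, chr10:23558140-23560029, an intron 8.32 kb from the start, had 34.1 and 17.9 (percentile 74.0) and no counterpart in any list. The heart peak, 61.1 kb from the start, was weak (6.34 and 4.82, percentile 21.6) and belonged to a region called in all 8 lists. That region was stronger in kidney (percentile 88.6), suckling liver (88.0) and newborn liver (82.1) than any CACNA1S peak was in muscle.

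CACNA1C (chr5:69016954-69448428, plus strand) held between 23 peaks in muscle and 45 in newborn liver, with 37 in heart. A promoter peak was present in all 8 lists, at percentile 67.6 in heart, 43.8 in muscle and 92.6 in suckling liver. Muscle was thus lowest by count but second by rate, at 40.3 peaks per 100000 against 50.7 in heart and 25.7 in adult liver, so the order depends on how list size is treated. The strongest heart peak, chr5:69039084-69039905, had 43.3 and 59.4 (percentile 94.6). Muscle had a peak over it with replicate percentiles of 45.2 and 0.433, and kidney and the 3 liver lists also had one. A heart peak at chr5:69175647-69176165 (38.3 and 44.6, percentile 93.4) was likewise higher in both heart replicates, at 90.4 and 92.1, than in muscle, at 6.71 and 42.3. Of 95 regions at the locus, 10 were in heart alone, 4 in muscle alone and 28 in 1 other newborn tissue alone.

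SCN4A (chr12:15001356-15048092, plus strand), the sodium channel of the skeletal muscle action potential, held 10 peaks in muscle, 9 in newborn liver, 7 in heart, kidney and spleen, 5 in lung, 4 in suckling liver and 3 in adult liver. It has 3 annotated starts. The peak over the first 2, chr12:15001281-15002479, had 17.7 and 17.2 in the muscle replicates (percentile 73.2, IDR 0.0482) and was in no other list. Upstream of the third start lay a shared peak, with 15.0 and 13.9 in muscle (percentile 67.7) and 10.9 and 6.87 in heart (48.6), and kidney had it at 45.5. Newborn liver, lung and spleen had other promoter peaks, with summits at −797, −821 and −782 bases from the first start, at percentiles from 21.4 to 43.2. The strongest muscle peak, chr12:15015285-15016220 in an intron, had 31.6 and 37.2 (percentile 84.8) and was present in all newborn lists, with heart at replicate percentiles of 8.40 and 17.4. The flank includes CD79B, a B-cell gene.

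Where a heart peak at a member locus overlapped a muscle peak, the strengths were compared by the percentiles of the 2 replicates of each list, taking the muscle peak with the longest overlap. There were 44 such pairs, of which 9 had both muscle replicates above both heart replicates (14.6% of the 33929 pairs genome-wide) and 17 the reverse (33.9% genome-wide), and the other 18 overlapped. With same-numbered replicates compared with each other, muscle was higher in both for 11 pairs (18.8% genome-wide) and heart for 17 (42.8% genome-wide). Under both rules heart led more often than muscle, at the members as genome-wide. At heart-type loci heart was higher in 13 of 32 pairs and muscle in 5, and at skeletal-type loci each was higher in 4 of 12. CASQ2, with more peaks in muscle, had heart higher in 4 of its 8 pairs and muscle in 0. RYR1 had 0 shared peaks, RYR2 had 2 and CACNA1C had 16. RYR1, RYR2, ATP2A1 and CACNA1S, the loci with the most extreme heart shares, held 4 of the 44 pairs between them.

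**Figure D5:**
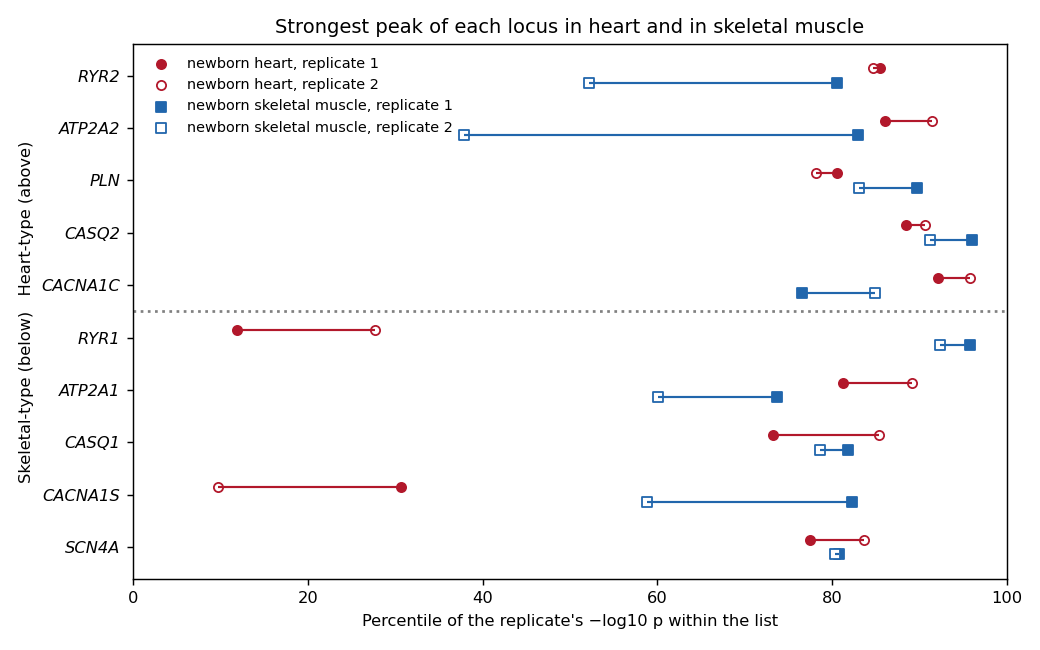
Percentile, within its list, of the strongest peak of each member in newborn heart (circles) and newborn skeletal muscle (squares), with replicate 1 filled, replicate 2 open and a line joining them. The strongest peak can be a different one in each list. The heart replicates of RYR1 lie at 11.9 and 27.7 and the muscle replicates at 95.8 and 92.3, whereas all 4 values of CASQ2 lie between 88.5 and 96.0.

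Regions called in heart alone or in muscle alone among the newborn lists were counted over the merged regions. Of the 305 member regions, 63 (20.7%) were in heart and no other newborn list, beside 4.30% of all 288665 regions, and 47 of the 63 were at RYR2. In muscle and no other newborn list were 31 (10.2%), beside 4.30%. In heart and muscle alone were 9 (2.95%), beside 1.16%. The heart-only regions lay at heart-type loci in 62 of 63 cases, and the muscle-only regions at skeletal-type loci in 23 of 31. Of all 305 member regions, 231 were at heart-type loci and 74 at skeletal-type loci, so most regions of any pattern would lie at heart-type loci. All 8 lists shared 10 regions, 4 of them at CACNA1C and 2 at CASQ1.

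Motif matches were counted in the peaks of the members and of all genes. The E-box was in 16 of 46 muscle peaks at skeletal-type loci (34.8%), beside 31.5% of all muscle peaks and 25.6% of all heart peaks, with 300-base windows centred on summits. It was in 11 of 50 muscle peaks at heart-type loci (22.0%), as was NKX2, which 11.8% of all muscle peaks held. At heart-type loci in heart, MEF2 was in 5.0% of 120 windows (5.24% of all heart peaks), GATA in 13.3% (14.7%), NKX2 in 16.7% (13.2%) and TEAD in 22.5% (17.9%). MEF2 and CArG matches were in 0 of the 46 muscle windows at skeletal-type loci, where 5.25% and 1.57% of all muscle windows held them. In the 300 bases upstream of the 15 annotated starts, the E-box was before 4, at both ATP2A1 starts, 1 ATP2A2 start and CACNA1S (16.6% of all starts held it). GATA was before PLN and 1 CASQ1 start (9.02% of all starts). The upstream sequence of PLN had 32.7% G or C and no CpG, whereas those of RYR2, CACNA1C and ATP2A2 had between 70.7% and 77.7% and from 33 to 41 CpG.

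Set side by side as densities, the isoform pairs did not follow a single pattern across lists. RYR1 was denser than RYR2 in 7 of 8 lists, all but heart, with 0.777 against 7.98 peaks per 100 kb there and 10.1 against 0.262 in muscle. CACNA1S was denser than CACNA1C in muscle alone, with 9.45 against 5.21. ATP2A1 exceeded ATP2A2 in 5 lists and was below it in heart (3.01 against 9.96), kidney and adult liver. CASQ1 was denser than CASQ2 in all 8 lists, 31.5 against 15.8 in muscle and 27.0 against 10.6 in heart. In 3 of the 4 pairs the order by density in heart was thus the opposite of that in muscle, and in the calsequestrins it was not. The loci differ in length, and by count the order can differ. CASQ2 (75.8 kb) had more peaks than CASQ1 (22.2 kb) in muscle (12 against 7) and heart (8 against 6), but fewer in the liver lists. CACNA1C (441 kb) had more than CACNA1S (74.1 kb) in muscle (23 against 7). RYR2 (765 kb) had more than RYR1 (129 kb) in kidney, newborn liver and lung.

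In liver, where these genes have no contractile role, loci kept peaks at every stage. CACNA1C held 45 peaks at the newborn, 43 at the suckling and 28 at the adult stage, which is 37.5, 30.3 and 25.7 per 100000. RYR2 held 12, 7 and 3 peaks and SCN4A 9, 4 and 3 (7.50, 2.82 and 2.75). RYR1 held 6, 11 and 3, CASQ1 4, 5 and 4, and CACNA1S 2, 3 and 3. ATP2A1 held 4, 4 and 2, and CASQ2 3, 3 and 1. The median density of all PCGs was 8.61, 9.91 and 7.61 locus peaks per 100 kb at these stages. ATP2A2, the pump of most cells, held 7, 7 and 9, and PLN 2, 1 and 5. The 3 stages have 1 list each, so these numbers carry no error. One RYR2 exonic region, 336 kb into the gene, was the strongest RYR2 peak in all 3, at percentiles 85.5, 76.5 and 81.7.

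A wider list of 36 genes of excitation and calcium handling was counted for context. Of all PCGs, 67.9% had a promoter peak in heart, 61.4% in muscle, 75.1% in kidney and 70.4% in lung. One in muscle and not in heart was found for 1.54% of PCGs, and the reverse for 8.0%. The median heart share per gene was 43.9%. Of 12 skeletal genes, 11 had a promoter peak in muscle, 5 in heart and from 5 to 8 in the other lists, with 6 in muscle and not in heart: CACNG1, STAC3, JSRP1, CLCN1, CHRNA1 and MUSK. CACNG1, a subunit of the CACNA1S channel, had its promoter peak at percentile 92.3, and STAC3, an adaptor of the same channel, at 95.0. The 12 skeletal genes together held 28 locus peaks in heart and 62 in muscle, a heart share of 26.1%. Of 12 cardiac genes, 10 had a promoter peak in heart, 8 in muscle, 11 in kidney and 10 in lung, so the count did not set heart apart. HCN4, a pacemaker channel, and GJA5, an atrial gap junction protein, had one in heart and not in muscle. The HCN4 peak was weak in heart (percentile 4.13, with 19.8 in kidney and 43.1 in lung), and GJA5 was at 55.1 in heart and 64.0 in kidney. These loci held 206 and 81 peaks, a heart share of 66.6%, led by CACNB2, a subunit of the CACNA1C channel (51 and 3), and SLC8A1, the sodium-calcium exchanger (43 and 9). Of 12 genes listed as used by both muscles, 10 had a promoter peak in heart and 12 in muscle. SLN, which encodes the pump inhibitor sarcolipin, was among those with one in muscle and not in heart. SLN had 0 locus peaks in heart and 9 in muscle. That group leaned to muscle, with 71 and 118 peaks and a heart share of 32.0%.

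By the percentiles of the strongest promoter peak over the 8 lists, with 0 where none was listed, the PCGs most like ATP2A1 were MYBPH (Euclidean distance of 31.7 percentile points), AMY2 (32.3) and SMTNL1 (34.0). All 3 had a muscle promoter peak, at percentiles 64.0, 72.1 and 87.4, and none in heart. Those most like PLN were PTGDR (36.3), KCNE1 (43.2) and LOC100513542 (43.8), with heart promoter peaks at 71.9, 60.8 and 83.9 and none in muscle. KCNE1 encodes a subunit of a cardiac potassium channel. The genes were picked by these same percentiles, so their match in heart and muscle follows from the choice and is no evidence about tissue.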

How the data were processed

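Accessible chromatin was measured by ATAC-seq in 16 libraries, and groups were taken from the labels. By the study's account the authors aligned reads to Sscrofa11.1 with Bowtie2, filtered them with SAMtools (1.3.1 in the submitters' processing notes, which also name deepTools), called peaks per replicate with MACS2 and merged the replicates of each group with IDR. From the deposited columns, the −log10 p values of the replicates and their minimum were used, with the deposited score, a scaled IDR in which 540 stands for 0.05. Merging replicates keeps only peaks called in both, and regions open in a minority of cells may be missed. The lists do not give the depth per library.

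Peaks were assigned with Python 3.11.15 (numpy 2.4.6, pandas 2.3.3) to 19560 PCGs on chromosomes 1 to 18, X and Y (RefSeq annotation release 106, 45998 starts) by an overlap of 1 bp or more, and positions are counted from 1. A promoter peak of another gene can therefore count at a member locus. Percentiles are ranks of −log10 p within a list. Peaks of all lists that overlapped were merged into regions, and a peak in no other newborn list overlapped none of the other 5. Sequences were read with pysam 0.24.0 from the RefSeq genome of the same assembly. No test was made: peak counts have 1 value per list, and −log10 p, given for 2 replicates, depends on depth. Counts are set beside those of all PCGs. Overlap counting was checked on simulated data. The 7 alternatives were: IDR of 0.05 or lower, an equal number of top peaks (57126), leaving out each replicate, narrower windows (1 kb upstream to 100 bp downstream and no flank), at least 50% of the peak inside, and the most upstream start alone.

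All members were named, with their strongest peaks in heart and muscle and their promoter peaks. The genes of the wider list were named where a promoter peak was in 1 of the 2 tissues, some items that these rules name are not reported here, and CACNB2, SLC8A1 and the comparisons of individual shared peaks were added after their values were seen. The members, the gene lists, the markers (MYH6 and PAX8 had no match) and the motifs were chosen with earlier results of these data known, so no pattern here is independent evidence.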

Additional observations from a re-analysis of the deposited data

How the results depend on the processing

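Limiting the lists to peaks with an IDR of 0.05 or lower lowered most counts. Members with a promoter peak went from 7 to 1 in heart and from 8 to 4 in muscle, peaks at the heart-type loci from 120 to 15 in heart and from 50 to 11 in muscle, and peaks at the skeletal-type loci from 16 to 4 in heart and from 46 to 10 in muscle. The heart share was then 61.6% at heart-type and 32.0% at skeletal-type loci, on the same sides of 50% as before. In alternatives chosen after seeing the data, the heart share of the heart-type loci without RYR2 was 49.1% in the full lists. It was 54.1% under the IDR limit, from equal counts in lists of unequal size, and 49.5% with equal lists. RYR2 kept 4 of 61 heart peaks and 0 muscle peaks, and 38 heart peaks when each list was limited to its 57126 strongest peaks. In that setting the heart-type loci held 85 and 50 peaks and the skeletal-type loci 11 and 46. Narrower windows, a larger required overlap and the most upstream start moved none of these 6 counts by over 1.5 times, but narrower windows lowered the heart peaks of PLN and of CASQ1 from 6 to 3. The single heart peaks of RYR1 and CACNA1S were lost with the IDR limit and with equal lists. The IDR limit left 2 of 13 muscle peaks at RYR1, 1 of 9 at ATP2A1 and 1 of 7 at CACNA1S. ATP2A1 kept its 1 heart peak under that limit, so heart and muscle had 1 each and the contrast in counts was lost there. Members with a promoter peak were 4 in kidney under both limits, and went to 1 (IDR) and 3 (equal lists) in newborn liver, 1 and 4 in lung, 1 and 4 in spleen, and 3 and 4 in suckling liver. Leaving out a replicate changes positions and values but not which peaks were merged, so it gave 120 to 120, 50 to 50, 16 to 16 and 46 to 46 peaks, and 7 to 7 and 8 to 8 promoters. It moved the strongest peak's percentile of ATP2A2 in muscle from 59.3 to between 49.1 and 83.0. The labels do not say whether a replicate number marks the same pig across tissues. With the replicate number as a block for shared peaks, also chosen after seeing the data, muscle was higher in 11 and heart in 17 of 44 pairs, against 9 and 17. Peak counts have no replicate values to pair. Depth limits what the lists hold, and a peak missing from a list was not called, which does not show closed chromatin.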
